A study of Mus musculus with 6 samples.

Results

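Metalloproteinases and their tissue inhibitors, the TIMPs, were examined in RAW264.7, a long-established macrophage line of the mouse. The group comprised 10 genes: the secreted matrix metalloproteinases Mmp9, Mmp12, Mmp13 and Mmp19, the membrane-type matrix metalloproteinase Mmp14, the membrane-anchored proteases Adam8 and Adam17, the secreted protease Adamts4, and the inhibitors Timp1 and Timp2. They were taken by gene symbol from the array's annotation, which gave 14 probes for them among 55681 probes and 22760 named genes. Control cells were kept in DMEM medium for 4 h, and treated cells received 50 µg/ml of AEPS, a root polysaccharide of Actinidia eriantha, for the same 4 h. RAW264.7 is a single immortal line, so the 3 samples labelled for each group are not animals, and the labels do not say that they were separate cultures. All p-values below rest on how these samples vary among themselves, a spread that may be technical.

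Matrix metalloproteinases are zinc-dependent enzymes made as inactive precursors, and most are secreted and cut collagens, elastin, gelatin and other matrix proteins. ADAM proteases sit in the cell membrane and shed the outer parts of membrane proteins, tumour necrosis factor among them, while ADAMTS proteases are secreted and cut matrix proteoglycans. TIMPs bind the active site of many of these enzymes and block them, so in macrophages the enzymes and their inhibitors are usually considered together. No single TIMP is taken here to block every enzyme named.

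Within each group replicates 1 and 2 had scanner files with the same values throughout, and each such pair was counted as 1 array. This left 2 distinct arrays per group on 2 slides, each slide holding 1 control and 1 AEPS array. They are called the first and the second array below, the second being the file given for replicate 3. The authors' deposited table held 3 distinct columns per group. Its replicate 1 and 2 columns ranked probes as the first and second scanner arrays did, and its replicate 3 columns matched no scanner file used here. The table's control replicate 3 had its highest rank correlation with AEPS replicate 3 (Spearman 0.966) and not with another control (0.947 and 0.956). Of the macrophage markers, 9 of 10 were well above background on every array and Fcgr1 among them was lower with AEPS (-1.49 on the log2 scale, limma's adjusted p = 0.0344). For other cell types 1 of 7 fibroblast, 0 of 5 epithelial, 3 of 5 endothelial, 4 of 6 neutrophil (Ly6g was not named on the array) and 3 of 6 T and B cell markers were above background on every array, and of these Cd79b alone passed the test (2.59 higher, adjusted p = 0.0125). Their part in the results below was not tested.

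The stretches of probe sequence below are shown because each gene's value rests on the transcripts these oligonucleotides bind. The first 30 of 60 bases are given 5′ to 3′ for the genes that passed the test below and for Timp2, which did not. They are also given for both Adam17 probes, whose capitals mark the bases that the pair shares.
Timp1: tacttttcctccatctttctttctcttaga
Timp2: ccgtgagcgttcttgtgccgtgttgatgcc
Mmp9: ccaaccttttccagctactttagtcaatca
Mmp14: ggacagcgagtaccctaaaaacatcaaagt
Adamts4: cgcatctttgagcattagttttctcatgtg
Mmp19: gtgttcctagaaggtgtccacttaattctg
Adam17, tested probe: ttgatgtcTGTGAATTACTAATAAAGCTAC
Adam17, other probe: TGTGAATTACTAATAAAGCTACGCACATGT
In the mm9 build named in the file headers these probes lie at chrX:20451802-20451861 (plus strand) for Timp1, chr11:118163146-118163205 (minus strand) for Timp2, chr2:164780620-164780679 (plus strand) for Mmp9, chr14:55058775-55058834 (plus strand) for Mmp14, chr1:173189952-173190011 (plus strand) for Adamts4 and chr10:128236221-128236280 (plus strand) for Mmp19. The tested Adam17 probe lies at chr12:21329378-21329437 (minus strand), and the other at chr12:21329370-21329429 (minus strand). Each of these probes matches an unbroken stretch of the genome. No mm9 annotation was used here, so they were not assigned to coding or untranslated exon sequence.

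The question was which enzymes and which inhibitors differ in transcript level after 4 h of AEPS. Levels are log2 of the spot's processed signal minus the array's 75th percentile, and changes are AEPS minus control with limma's moderated standard error (SE). A probe was tested if it was well above background on both arrays of at least 1 group, and p-values were adjusted by Benjamini-Hochberg over all 25944 tested features. Of the 10 genes 9 were tested. Timp1, Mmp9, Mmp14 and Adamts4 rose, Mmp19 fell, and Timp2, Mmp12, Adam8 and Adam17 did not pass an adjusted p of 0.05. This fit leaves out the pairing of arrays by slide. Across all tested features 7.12% passed it, 4.18% higher and 2.94% lower. The 5 of 9 genes that passed it include Mmp14 and Adamts4, which entered the test only through their bright AEPS arrays. With the slide as a block Adam8 and Adam17 passed as well, as did 29.8% of all features. Without the block, 3 of the 10 genes passed where a probe had to be above background on all arrays, as did 2258 of the 23701 features tested there. Mmp12, Mmp13, Mmp14 and Adamts4 were not tested under that filter. The genes had been chosen with earlier results known, which makes the counts of genes that passed a description. In bulk RNA, fewer cells with a transcript and less of it per cell cannot be told apart. Levels of different probes cannot be set against each other, so genes were compared with each other only by their changes.

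**Figure D1:**
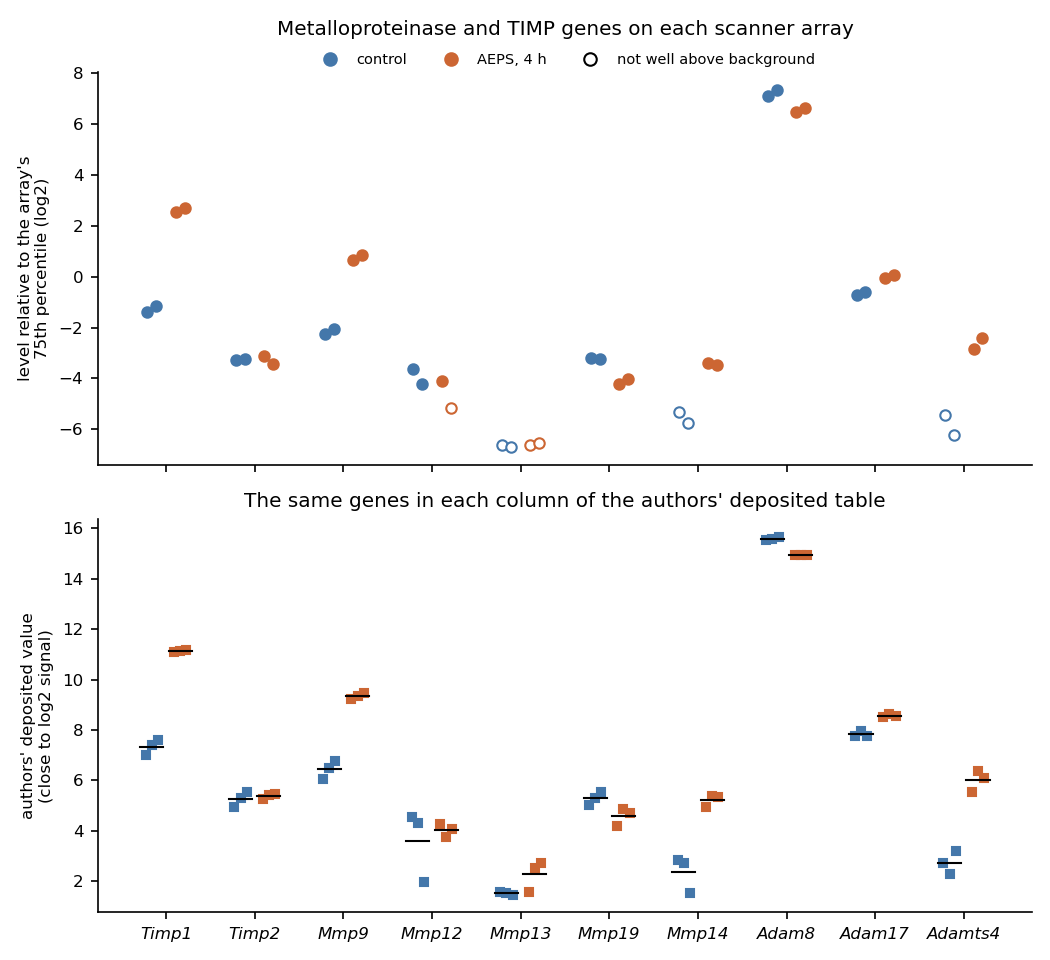
Level of each of the 10 genes on every array, as log2 relative to the array's 75th percentile on the 4 scanner arrays (upper panel) and as the authors' deposited value in 6 columns (lower panel, black lines are means of 3). Timp1, Mmp9, Mmp14 and Adamts4 are higher on every AEPS array than on every control, while the groups overlap for Timp2 and Mmp12. Open circles mark spots not well above background; heights of different genes are not comparable.

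Among the inhibitors, Timp1 rose and Timp2 did not pass. Timp1 encodes a secreted inhibitor of most matrix metalloproteinases. Its level was -1.40 and -1.17 in controls and 2.54 and 2.72 with AEPS. Both AEPS arrays stood far above both controls, and the 2 arrays of a group lay close together. The change was 3.92 ± 0.16 (SE, 2 arrays per group), or 15.1-fold, with limma's adjusted p = 0.00941. On the separate slides it was 3.94 and 3.89. The authors' deposited table gave Timp1 as 7.0, 7.40 and 7.62 in controls and 11.08, 11.13 and 11.19 with AEPS. The AEPS columns lay closer together than the controls, and the change there was 3.79 ± 0.17 (limma's adjusted p = 0.000179). Leaving out the first or the second control array ended the call, with changes of 3.80 (limma's adjusted p = 0.0670) and 4.03 (adjusted p = 0.0528). Timp1 ranked 59 from the top among the 25944 features by change.

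Timp2 encodes a second secreted TIMP, which also takes part in activating the gelatinase MMP2 together with MMP14. Its level was -3.27 and -3.24 in controls and -3.10 and -3.42 with AEPS. One AEPS array lay above and the other below the controls, so the groups overlapped. The change was -0.01 ± 0.17 (limma's adjusted p = 0.972), and the authors' table gave 0.12 ± 0.16 (adjusted p = 0.628). A second Timp2 probe, which spans a stretch of 6778 bases of the genome and so crosses a splice junction, had -0.04 ± 0.24 (adjusted p = 0.913 with every probe as a feature). Both probes thus read near 0 with errors that leave room for small changes in either direction.

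The inhibitors were also compared within each array, where scaling cancels. The log2 difference of Timp1 over Timp2 lay between 1.87 and 2.07 in controls and between 5.65 and 6.15 with AEPS. The change in that difference was 3.93 (two-sided exact permutation p = 0.333, the smallest that 2 against 2 arrays allow). The same difference in the authors' table lay between 2.04 and 2.09 in controls and between 5.71 and 5.82 with AEPS, a change of 3.68 (two-sided exact permutation p = 0.1, the smallest possible with 3 against 3). Neither design can reach 0.05, but the groups stood far apart relative to their spread. The SDs of controls and AEPS were 0.14 and 0.35 on the scanner arrays and 0.026 and 0.064 in the table.

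The secreted matrix metalloproteinases did not move together: of 3 tested, Mmp9 rose, Mmp19 fell and Mmp12 did not pass. Mmp9 encodes gelatinase B, which cuts denatured collagen and basement membrane collagen. It was measured by 10 spots on each array, of which 2 were left out on the second control array as outliers. Its level was -2.25 and -2.06 in controls and 0.68 and 0.84 with AEPS, with no overlap. The change was 2.91 ± 0.15, or 7.54-fold (limma's adjusted p = 0.0123), with 2.92 and 2.90 on the separate slides. The authors' table gave Mmp9 as 6.07, 6.51 and 6.77 in controls and 9.23, 9.33 and 9.48 with AEPS, a change of 2.90 ± 0.19 (adjusted p = 0.000511). Without the first or the second control array Mmp9 had 2.82 and 3.01 and no longer passed (adjusted p = 0.0830 and 0.0674). The table's controls differed among themselves by more than the AEPS columns did, yet the highest control stayed well below the lowest AEPS column.

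Timp1 and the enzyme gene Mmp9 both rose, Timp1 by more. Within an array the log2 difference of Timp1 over Mmp9 was 0.85 and 0.89 in controls and 1.87 and 1.88 with AEPS. It thus moved by 1.0 in favour of Timp1 (two-sided exact permutation p = 0.333, the smallest possible). The move in the authors' table was 0.90, from between 0.85 and 0.93 to between 1.71 and 1.85 (two-sided exact permutation p = 0.1, the smallest possible).

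Mmp19 encodes a metalloproteinase that cuts basement membrane proteins. Its level was -3.20 and -3.25 in controls and -4.20 and -4.02 with AEPS. Both AEPS arrays lay below both controls, and the change was -0.89 ± 0.14 (limma's adjusted p = 0.0496), just inside the threshold. Values in the authors' table were 5.03, 5.31 and 5.56 in controls and 4.18, 4.86 and 4.71 with AEPS, again with no overlap. There the change was -0.72 ± 0.23 and the call was lost without pairing (adjusted p = 0.0607) but held with the replicate block (adjusted p = 0.0158), as it did on the scanner arrays with the block (adjusted p = 0.0371). The call was lost in 15 of 20 alternatives, among them each in which 1 array was left out. With arrays scaled to spike-in probes the change was -0.28 (adjusted p = 0.460), so this fall is relative to the 75th percentile.

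Mmp12 encodes macrophage elastase. Its level was -3.65 and -4.24 in controls and -4.09 and -5.18 with AEPS, where the second AEPS array was not well above background. The groups overlapped, and the change was -0.69 ± 0.46 (limma's adjusted p = 0.355). The authors' table listed Mmp12 at 4.56, 4.31 and 1.96 in controls and 4.28, 3.78 and 4.08 with AEPS. Control replicate 3 stood far below the other columns and turned the sign, to 0.44 ± 0.72 (adjusted p = 0.685). Without that column the change was -0.39. A second Mmp12 probe was not well above background on any array.

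Mmp13, which encodes collagenase 3, was not well above background on any of the 4 arrays and was not tested. Its level was -6.61 and -6.71 in controls and -6.61 and -6.54 with AEPS, all below the dimmest level that counted as above background. The authors' columns held 1.59, 1.54 and 1.48 in controls and 1.58, 2.52 and 2.73 with AEPS. AEPS replicate 1 there lay among the controls and the other AEPS columns above them. At this signal the arrays could not show whether Mmp13 differed.

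The membrane-type matrix metalloproteinase Mmp14 rose from below background. Its product cuts collagen at the cell surface and activates the precursor of MMP2. The level was -5.34 and -5.76 in controls, not well above background on either, and -3.41 and -3.49 with AEPS, above background on both. With AEPS Mmp14 stood 2.27-fold above the lowest level that counted as above background on the control arrays. That level is the lowest over all probes and not the detection limit of this probe. The fitted change was 2.10 ± 0.20 (limma's adjusted p = 0.0257), which depends on control signals that carry only a bound. For Mmp14 the authors' table held 2.83, 2.75 and 1.55 in controls and 4.96, 5.37 and 5.36 with AEPS, a change of 2.85 ± 0.38 (adjusted p = 0.00390). The control columns spread widely, and control replicate 3 was again the lowest. After normexp background correction the change was 0.09 and did not pass (adjusted p = 0.611), nor did it without the first or the second control array (2.31 and 1.89, adjusted p = 0.108 and 0.104).

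Mmp9 was set against Mmp14, a secreted against a membrane-anchored enzyme. Their changes differed by 0.82 on the scanner arrays (two-sided exact permutation p = 0.333, the smallest possible) and by 0.04 in the authors' table (two-sided exact permutation p = 1). In the table the control differences ran from 3.24 to 5.22 and enclosed the AEPS range of 3.96 to 4.27. After normexp correction the difference on the scanner arrays was 2.12. Because Mmp14 was below background in controls, its own change and this difference rest on control signals that carry only a bound, and no difference between the genes could be shown.

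Adamts4 also rose from below background. It encodes aggrecanase 1, a secreted protease of the proteoglycans aggrecan and versican. Its level was -5.44 and -6.22 in controls, neither well above background, and -2.83 and -2.40 with AEPS, both above. With AEPS it stood 4.03-fold above the lowest level that counted as above background on the control arrays. The fitted change was 3.22 ± 0.34 (limma's adjusted p = 0.0293). The values of the authors' table were 2.72, 2.28 and 3.19 in controls and 5.55, 6.37 and 6.08 with AEPS, a change of 3.27 ± 0.31 (adjusted p = 0.00143). All AEPS columns lay above all controls. The change after normexp correction was 0.50 and did not pass (adjusted p = 0.0616). Nor did the changes of 3.61 and 2.83 without the first or the second control array (adjusted p = 0.0809 and 0.0855). A second Adamts4 probe was not well above background on any array, so the rise rests on 1 probe. Since Mmp14 and Adamts4 were tested only through their bright AEPS arrays, their direction was largely set by that filter.

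The membrane proteases Adam8 and Adam17 showed small shifts in opposite directions, and neither passed in the unpaired fit. Adam8 encodes a leukocyte sheddase. Its level was 7.12 and 7.35 in controls and 6.50 and 6.66 with AEPS, without overlap. The change was -0.66 ± 0.16 (limma's adjusted p = 0.0874), and it passed with the slide as a replicate block (adjusted p = 0.0360). The table read 15.53, 15.55 and 15.64 in controls and 14.93, 14.93 and 14.92 with AEPS, and there the change of -0.65 ± 0.06 passed (adjusted p = 0.00168). The AEPS columns were almost identical to each other. With spike-in scaling the change was -0.05 (adjusted p = 0.873), so on that scale there was little left of it.

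Adam17 encodes the sheddase that releases tumour necrosis factor and several receptors from the cell surface. Its level was -0.73 and -0.60 in controls and -0.03 and 0.06 with AEPS, without overlap. The change was 0.68 ± 0.14 (limma's adjusted p = 0.0677), and it passed with the slide as a replicate block (adjusted p = 0.0353). Adam17 stood in the authors' table at 7.75, 7.97 and 7.77 in controls and 8.51, 8.62 and 8.54 with AEPS, a change of 0.73 ± 0.09 that passed (adjusted p = 0.00299). With spike-in scaling the change was 1.29 and passed without the block (limma's adjusted p = 0.0362). The other probe had 0.68 ± 0.16, but it shares 52 of its 60 bases with the tested one, as the sequences above show, and is no separate measurement of the transcript.

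**Figure D2:**
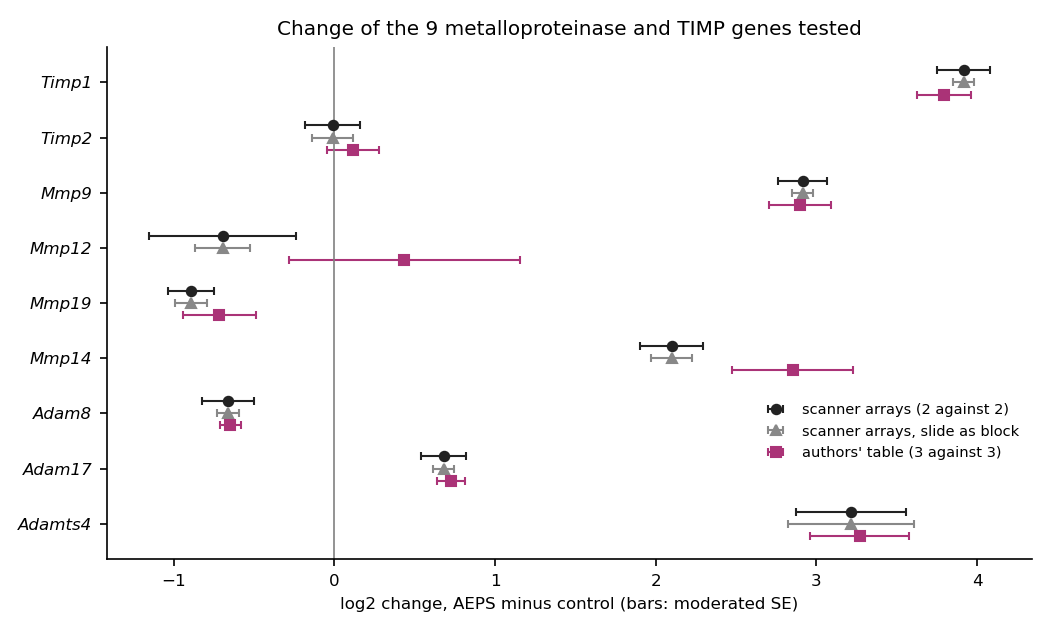
Log2 change of the 9 tested genes, AEPS minus control, with bars of 1 moderated SE, from the scanner arrays without and with the slide as a block and from the authors' table. Timp1 at 3.92 and Mmp9 at 2.91 are nearly the same in all 3 fits. Mmp12 changes sign between sources, and Adam8 and Adam17 lie at -0.66 and 0.68.

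With the replicate block 29.8% of all features passed, 13% higher and 16.8% lower, and of the 9 genes 5 were higher and 2 lower. The authors' table had 33.4% of all features past the threshold, 17.1% higher and 16.4% lower, and of the 9 genes 5 were higher and 1 lower. The groups did not overlap for 7 of the 9 genes on the scanner arrays and for 7 of 9 in the table, against 63.2% and 48.1% of all features. Non-overlap is thus common among all features. By size of change Timp1 and Mmp9 ranked 59 and 122 from the top of 25944 features, while Adamts4 and Mmp14, with controls below background, have no defined rank. The 2 fits share arrays, since the table's replicates 1 and 2 are the scanner arrays.

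**Figure D3:**
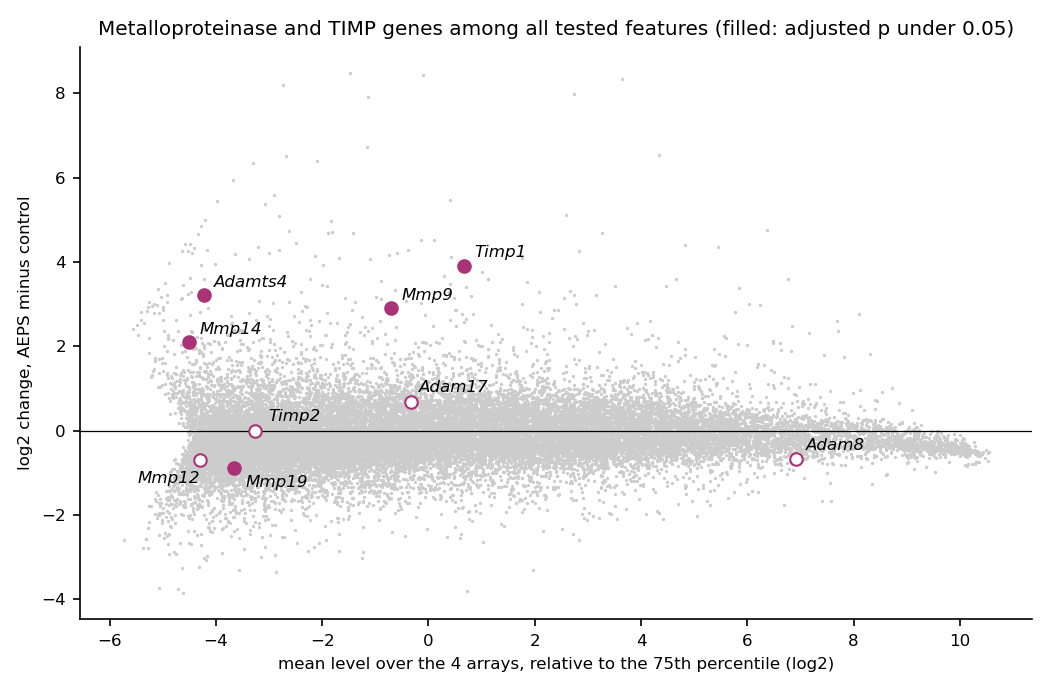
Log2 change, AEPS minus control, against the mean level over the 4 arrays for all 25944 tested features (grey), with the 9 genes marked and those past an adjusted p of 0.05 filled. Timp1 and Mmp9 stand at 3.92 and 2.91, in the upper part of the cloud. Adamts4 and Mmp14 lie at the dim end, where controls were below background.

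The sequence before the transcription start was available from RefSeq (GRCm38.p6) for 7 of the 10 genes. It is shown for the 2 inhibitors, which differed in response, for Mmp14, which rose, and for Mmp13, the gene with a motif match that stayed below background. Each line holds 250 bases, 5′ to 3′ on the gene's strand, ending just before the start, with capitals for a match to the AP-1 motif TGACTCA (or TGAGTCA on the other strand).
Timp1: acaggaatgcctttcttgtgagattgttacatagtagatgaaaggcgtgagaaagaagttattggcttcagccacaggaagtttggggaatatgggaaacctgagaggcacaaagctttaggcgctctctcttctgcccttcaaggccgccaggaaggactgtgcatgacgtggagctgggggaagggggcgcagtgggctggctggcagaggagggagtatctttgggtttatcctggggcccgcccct
Timp2: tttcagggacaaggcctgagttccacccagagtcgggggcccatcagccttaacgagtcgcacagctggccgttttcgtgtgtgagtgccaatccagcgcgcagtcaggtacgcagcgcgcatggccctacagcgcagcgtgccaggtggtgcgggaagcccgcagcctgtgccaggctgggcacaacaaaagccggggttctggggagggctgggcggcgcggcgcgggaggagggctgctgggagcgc
Mmp14: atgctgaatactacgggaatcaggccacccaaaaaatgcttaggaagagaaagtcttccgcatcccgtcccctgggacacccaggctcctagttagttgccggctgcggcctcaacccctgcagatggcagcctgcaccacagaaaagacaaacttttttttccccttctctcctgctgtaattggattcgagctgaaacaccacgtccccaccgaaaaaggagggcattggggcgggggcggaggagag
Mmp13: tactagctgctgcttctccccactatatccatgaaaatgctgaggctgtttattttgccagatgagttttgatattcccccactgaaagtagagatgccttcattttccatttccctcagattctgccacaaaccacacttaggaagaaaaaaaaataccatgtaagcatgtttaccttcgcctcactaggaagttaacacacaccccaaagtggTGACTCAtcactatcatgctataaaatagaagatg
These windows are chrX:20869916-20870165 (plus strand) for Timp1, chr11:118355412-118355661 (minus strand) for Timp2, chr14:54431348-54431597 (plus strand) for Mmp14 and chr9:7272264-7272513 (plus strand) for Mmp13. The Mmp13 match begins 35 bases before the start on the plus strand. The one other match among these genes lies before the second listed start of Mmp12, 44 bases upstream. The AP-1 motif occurs in 4.46% of 32851 promoter windows of the same length. A degenerate NF-kB motif, searched on both strands, had no match in the 7 genes and occurs in 3.9% of windows. A match is a description of letters only, and no match says nothing about the factor beyond this window.

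The wider protease system was read from 6 lists of related genes. Their medians are relative to the 75th percentile and stay as given with genes below background set at their bounds. Spike-in scaling moved the median change of all features from -0.19 to 0.42. On that scale 26 genes of the lists passed as higher and 0 as lower, so the falls below are relative to the 75th percentile. Over all tested features 7.12% passed, 29.8% with the replicate block and 33.4% in the authors' table. The list counts are to be read beside these shares. Of 18 other matrix metalloproteinases 3 were tested and 0 passed limma's adjusted test, with 1 at an unadjusted p under 0.05, 1 lower with the replicate block and 1 lower in the authors' table. Their median change was 0.00. The brightest, Mmp17, a membrane-type enzyme, had 0.64 ± 0.74. Mmp2 and Mmp3, which encode gelatinase A and stromelysin 1, and Mmp8 and Mmp10 were not tested because they were not above background on both arrays of either group. Mmp24 had -0.81 ± 0.18 (adjusted p = 0.0784), and it was the one that passed with the replicate block (adjusted p = 0.0359); it was singled out after its values were seen. Of the 7 matrix metalloproteinases tested on the scanner arrays, only Mmp9 and Mmp14 passed as higher. Mmp14 was tested only through its bright AEPS arrays, and after normexp its change was 0.09 and did not pass.

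Among 28 other ADAM and ADAMTS genes 12 were tested and 0 passed, with 3 at an unadjusted p under 0.05, 1 higher and 3 lower with the block, and 2 higher and 1 lower in the table. Their median was -0.39. Adam10, the other main sheddase of cell surface proteins, had 0.31 ± 0.18 (adjusted p = 0.311). Adam15, the brightest, had -0.52 ± 0.19 (adjusted p = 0.155). Adam9, singled out after its values were seen, had 0.65 ± 0.14 (adjusted p = 0.0702) and passed with the replicate block (adjusted p = 0.0354).

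Of 13 other inhibitors and clearance receptors 9 were tested, 2 rose and 0 fell (3 and 1 with the replicate block and in the authors' table), with a median of 0.01. Slpi, an inhibitor of neutrophil elastase, rose by 1.49 ± 0.13 (limma's adjusted p = 0.0242). Reck, a membrane-anchored inhibitor of metalloproteinases, had 0.01 ± 0.43, Cst3, a cysteine protease inhibitor, had -0.37 ± 0.20, and Timp3 was not tested. Lrp1, which encodes an endocytic receptor for protease and inhibitor complexes, had -0.69 ± 0.20 (adjusted p = 0.110, and 0.0356 with the block). Within the TIMP family, then, a rise was found for Timp1 alone among those tested; Timp4, named after its values were seen, had -0.69 ± 0.27 (adjusted p = 0.169).

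Activators, partners and trafficking factors were mixed: of 25 genes 21 were tested, 4 rose and 2 fell (7 and 4 with the replicate block, 7 and 6 in the authors' table), with a median of -0.07. Lcn2, whose human product binds MMP9, rose by 2.62 ± 0.16 (limma's adjusted p = 0.0150), and its level went from -0.78 and -1.02 to 1.64 and 1.80. Plaur, the receptor of urokinase, rose by 2.07 ± 0.15, and the integrin gene Itgav by 1.70 ± 0.17. Plat, the tissue plasminogen activator, was below background in controls and, with AEPS, 3.82-fold above the lowest level counted as above background there. Plat was tested only through its AEPS arrays, which largely set its direction. In contrast Plau, which encodes urokinase itself, fell by 1.18 ± 0.14 (adjusted p = 0.0323), from levels of 3.29 and 3.38 to 2.12 and 2.21. Plau and its receptor gene Plaur thus moved in opposite directions on both slides. Cd151, a tetraspanin gene named after its values were seen, had -1.11 ± 0.15 (adjusted p = 0.0378). Furin, a convertase that removes the inhibitory part of MMP14 and ADAM17, had 0.18 ± 0.15 (adjusted p = 0.439), and the brightest that did not pass, Cd63, had -0.07 ± 0.17. Cd44, which anchors MMP9 at the cell surface, had 0.57 ± 0.14 (adjusted p = 0.0860, and 0.0376 with the block). Rhbdf2, which encodes iRhom2, the partner that carries ADAM17 to the surface, had 0.99 ± 0.16 and missed the threshold (adjusted p = 0.0509), but passed with the block (0.0336) and in the table (0.00136).

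Genes for proteins shed by ADAM17 and related sheddases had the largest count. Of 28 genes 19 were tested, 11 rose and 1 fell (11 and 5 with the replicate block, 12 and 5 in the authors' table), with a median of 1.80. Of those tested 63.2% passed, beside 7.12% of all features, in a list chosen with earlier results known. Tnfrsf1b, a receptor of tumour necrosis factor, rose by 4.53 ± 0.19 (limma's adjusted p = 0.00949), and Tnf itself by 3.60 ± 0.18 (adjusted p = 0.0104). Csf1, the macrophage growth factor, was below background in controls and, with AEPS, 20.5-fold above the lowest level counted as above background there. Csf1 was tested only through its AEPS arrays, which largely set its direction. Cd40, a receptor that drives macrophage activation, rose by 3.21 ± 0.13. Il6ra, a receptor chain of interleukin-6 named after its values were seen, fell by 1.09 ± 0.13 (adjusted p = 0.0350). With spike-in scaling Il6ra did not pass as lower. Csf1r, the brightest that did not pass, had -0.60 ± 0.17 (adjusted p = 0.112, but 0.0371 with the block and 0.0125 in the authors' table). These are transcript levels of substrates and carry no measurement of shedding.

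Of 20 genes for matrix substrates 13 were tested, 2 rose and 0 fell (3 and 3 with the replicate block, 3 and 1 in the authors' table), with a median of -0.56. Tnc, encoding tenascin C and measured above background on a single control array, rose by 2.48 ± 0.20. Thbs1, encoding thrombospondin 1 and below background in controls, stood with AEPS 2.36-fold above the lowest level counted as above background there. Both genes that rose were tested only through their AEPS arrays, so their direction was largely set by that filter. Spp1, the osteopontin gene and the brightest that did not pass, had 1.07 ± 0.18 (limma's adjusted p = 0.0514, and 0.0336 with the block). Of the collagen and basement membrane genes, named after their values were seen, Col3a1 had -1.46 ± 0.25 and was not above background with AEPS (adjusted p = 0.0539, and 0.0371 with the block). Col3a1 was tested only through its control arrays, which largely set its direction. The authors' table gave it -0.25 (limma's adjusted p = 0.857). Hspg2, encoding perlecan, had -1.0 ± 0.28 (adjusted p = 0.107, and 0.0336 with the block). Col1a2 and the laminin gene Lama5 had -0.72 ± 0.52 and -0.68 ± 0.18 and passed neither fit, and Col1a1, Col4a1, Col4a2 and Lamb1 were not tested.

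**Figure D4:**
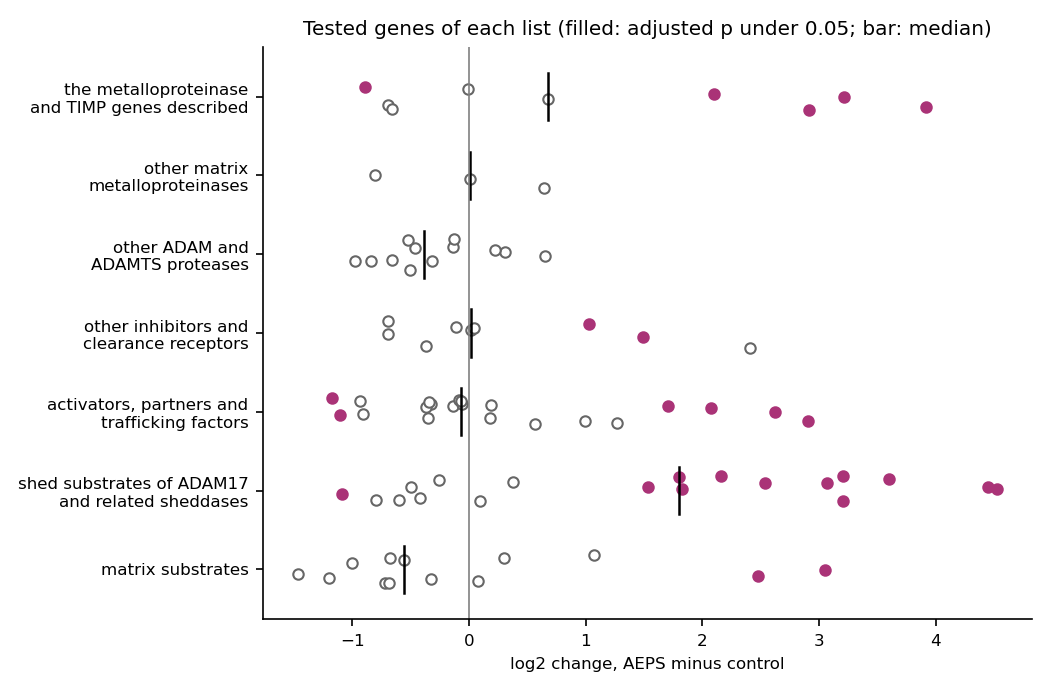
Log2 change, AEPS minus control, of every tested gene of the 10-gene group and of the 6 related lists; filled points passed an adjusted p of 0.05 and bars are medians, for genes below background in 1 group at their fitted value. The shed substrates have 11 higher points and a median of 1.80, while the other matrix metalloproteinases and ADAM genes have 0 filled points.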

How the data were processed

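Cy3-labelled cRNA from total RNA of 6 samples was read on Agilent arrays of 1 colour, per the labels' protocols. The deposited scanner files give spot intensity values (processed, mean and background signal), read with Agilent Feature Extraction 10.7.1.1 per the file headers. The authors' deposited table holds values close to log2 of the processed signal; all 6 columns have a median of 4.72 and sorted values within 0.01, and no source used here states its exact scale.

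Control spots and flagged outlier spots were left out, spots of a probe were averaged, and log2 signals, less the 75th percentile of the array they came from, were fitted with limma 3.58.1 in R 4.3.3 on 4 distinct arrays. Features were 14600 named genes, by their brightest tested probe, and 11344 unnamed probes. A gene below background on all arrays of a group has only a bound, taken per array at its own signal or at the lowest signal above background, whichever is higher. That lowest signal is over all probes of the array and is not the detection limit of the gene's own probe. The 14 probes were found by the symbol in the annotation of the scanner files of slide 2, since those of slide 1 give no symbols. The genes and lists were chosen with earlier results of these data known. The text names the 10 genes, in each list up to 4 that passed by largest change and the brightest that did not, and a few preset readouts whatever their value; others are marked, and 1 gene meeting this rule is not reported here. Same-numbered table columns deviated together from their group means (r = 0.56, 0.36 and 0.40, others -0.48 to 0.23), as did arrays of a slide (0.59), so the numbers pair the samples. The fit was tested on simulated data. Alternatives were the table, the replicate block, normexp, quantile and spike-in scaling, other probe filters and summaries, and leaving out arrays.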

Additional observations from a re-analysis of the deposited data

How the results depend on the processing

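Timp1 and Mmp9 kept their direction in all 20 alternatives and their call in 17 of 20, with changes of 3.46 to 4.53 and 2.22 to 3.52. Each lost its call without either control array and with no filter on dim probes. The block on the scanner arrays, the probe filters and the probe summaries left the change of both genes as it was. Other alternatives share arrays or columns, so the counts are not of separate checks. Adamts4 and Mmp14 kept their call in 15 of 19, and lost it without either control array, with no filter on dim probes and after normexp. Where they kept it they had been tested only through their bright AEPS arrays, so these calls repeat that selection. The filter that asked for all arrays left both out. Mmp19 kept its call in 5 of 20, and Adam8 and Adam17 gained one in 11 of 20 each. Timp2 passed in none, but was 0.12 in the authors' table with or without the replicate block, 0.20 after quantile normalization, 0.60 with spike-in scaling, -0.31 after normexp, -0.17 to 0.15 with 1 scanner array left out (0.0033 for the second control array), and in the table at -0.04 to 0.25 when 1 column was left out. Mmp12 was 0.44 in the table with or without the replicate block, -0.39 to 0.91 with 1 column left out and -1.24 to -0.15 with 1 scanner array left out.

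Of the 10 genes 5 passed, but 3 did where a probe had to be above background on all arrays, as did 2258 of 23701 features. With no filter on dim probes 0 of the genes passed, and limma called 0 of all features (7358 at an unadjusted p under 0.05) and 0 related genes. Leaving out 1 scanner array gave 0 to 4 of the genes (0 without either control array), 7 to 788 features and 0 to 18 related genes; leaving out 1 table column gave 6, 5620 to 7466 and 35 to 41. Of all features 1847 passed, against 8678 in the table, 7719 with the replicate block, 12928 with both, 4589 after normexp, 2907 after quantile normalization, 4428 with spike-in scaling and 2801 with every probe as a feature. Of the related genes 22 passed, against 42 in the table, 42 with the block and 50 with both. Of the calls 58.7% were higher, against 51.0% in the table, 43.6% with the block, 41.4% after normexp and 96.6% with spike-in scaling, which moved the median change of all features from -0.19 to 0.42. Replicates 1 and 2 of the scanner files being identical leaves 2 arrays per group, so a run without 1 array assumes that the lone array varies like the other group. Genes below background carry bounds only.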
